A study of Mus musculus with 3 samples.

Results

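Non-arterial endothelium of the mouse forelimb bud, the part of the vascular lining that covers the capillary plexus and the veins, was taken here from single-cell RNA sequencing (Chromium 3′ v3) by a gate on marker genes. Its cells were selected on measured levels. A barcode needed 1000 or more genes, and less than 10% of its UMIs (unique molecular identifiers, each marking 1 captured RNA molecule) could be mitochondrial. It also needed a summed level of Cdh5, Pecam1 and Emcn of at least 2 UMIs per 10000, Epcam, Trp63 and Wnt6 together under 1, Hba-x, Hbb-y and Hbb-bh1 together under 2% of UMIs, and the arterial genes Gja4, Gja5 and Dll4 together under 1. The gate held 1054 of 10659 kept barcodes and of 22501 deposited ones: 310 in mutant 1, 333 in mutant 2 and 411 in the control. The cells were chosen by these values, so the gate's 12 genes, and levels in the members beside those in arterial-like cells (the same gate with an arterial sum of at least 1), are given as description with no test. What was tested is the mutant effect: mutant against control within the members, and whether that effect differed from the one in arterial-like cells or in mesenchyme. The arterial limit of the gate sets which cells fall on each side of the arterial-like comparison.

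Mutant embryos were Esco2fl/fl;Prrx1-CreTg/0 and control embryos were Esco2fl/fl, all at embryonic day 9.5, so both genotypes carried the floxed alleles and the Cre transgene was in the mutants alone. Esco2 acetylates cohesin during DNA replication, and the Prrx1 promoter fragment is known for driving Cre in limb bud mesenchyme. The design names 3 replicates per genotype, each of 3 pooled samples with 2 limb buds (6 in all, 2 samples male and 1 female). Cells were released with trypsin from whole forelimb buds, which the labels call mesenchymal, so the endothelial cells were not sorted. Libraries of 2 mutant replicates and 1 control were used here, and nothing says whether they came from separate litters, so the spread behind each p-value is that of these libraries and may be technical.

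Limb vessels first form as a plexus of small channels that is later remodelled into arteries and veins. Nr2f2 (COUP-TFII) is a nuclear receptor that maintains venous identity and holds down Notch signalling in veins, and Aplnr, the apelin receptor, marks venous and plexus endothelium that can sprout. Ephb4 is the venous partner of the arterial ligand Efnb2. Nr2f2 is also made by mesenchyme, whereas Aplnr is largely endothelial in the early embryo.

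Members were deeply sequenced, with a median of 67158 UMIs in mutant 1, 56460 in mutant 2 and 88037 in the control. Median genes detected were 7838.5 in mutant 1, 7515 in mutant 2 and 8231 in the control. Among members whose sex could be read from Xist and Y-linked UMIs, 99.6% in mutant 1, 92.6% in mutant 2 and 80.4% in the control were male, so the libraries departed from the labelled balance of sexes and from each other. Barcode sequences were shared by 1 member of mutant 1 and mutant 2, and by none between either mutant and the control. Just inside the endothelial threshold, with a sum between 2 and 3, lay 8 members of mutant 1, 5 of mutant 2 and 13 of the control, and just outside it, between 1 and 2, lay 15, 27 and 22 barcodes. Just inside the arterial threshold, between 0.5 and 1, lay 48, 54 and 71 members, and just outside it, between 1 and 1.5, lay 30, 27 and 58 barcodes.

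The targeted gene was read first. Esco2 (ENSMUSG00000022034, mm10 chromosome 14, 65819038 to 65833994) stood in the members at 30.4 CPM (a gene's UMIs scaled to the total UMIs of the class in that library) in mutant 1 and 36.2 CPM in mutant 2, against 28.2 CPM in the control. Its log2 fold of mutants over control was 0.19 (SE 0.16), with an edgeR adjusted p of 0.787. In the mesenchyme of the same libraries (Prrx1, Prrx2 and Twist1 together at least 2 per 10000, endothelial sum under 1) it stood at 22.6 and 21.6 CPM in the mutants, against 30.8 CPM in the control. Which part of the gene is deleted is not given in the labels and 3′ reads need not cover it, so these levels do not measure deletion. UMIs of the CRE feature in the matrices came to 0.0928 CPM and 0.0506 CPM in the members of mutant 1 and mutant 2 and to 0 in the control, and in mesenchyme to 1.15 CPM and 1.20 CPM in the mutants and to 0 in the control.

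Cdh5 and Emcn belong to the gate, so their levels describe the members and do not check their label. Cdh5, the adhesion molecule of endothelial junctions, stood at 384, 419 and 413 CPM in mutant 1, mutant 2 and the control, and Emcn, a sialomucin of venous and capillary endothelium, at 726, 818 and 744 CPM. Of 26 pan-endothelial genes outside the gate, all 26 passed the filter on low values (a mean of at least 5 CPM), among them the VEGF receptor Kdr at 506, 473 and 445 CPM. Markers of other cells were low but not 0: the summed level of 12 mesenchyme genes was 128 and 198 CPM in the mutants, against 110 CPM in the control, where mesenchyme itself summed to 2736, 2129 and 2256 CPM. Of the 12 mesenchyme markers none was at 0 in all libraries, and 12 macrophage genes summed to 22.8, 26.5 and 30.9 CPM. The ectoderm list summed to 10.4, 11.5 and 4.39 CPM. It includes Epcam, Trp63 and Wnt6, which the gate held down, so its sum was partly set by the gate. Likewise the 12 mesenchyme genes include Prrx1, Prrx2 and Twist1, by which mesenchyme was chosen, so the sums in mesenchyme were partly set by that choice.

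Nr2f2 (ENSMUSG00000030551, chromosome 7, 70351944 to 70366735) stood in the members at 124 CPM in mutant 1 and 103 CPM in mutant 2, against 101 CPM in the control. Mutant 2 lay next to the control and mutant 1 above both. Its log2 fold of mutants over control was 0.12 (SE 0.18), which the edgeR quasi-likelihood test did not call (adjusted p = 0.870). Arterial-like cells of the same libraries held 41.7, 38.7 and 42.3 CPM. Mesenchyme held 136, 93.3 and 116 CPM, a range that takes in the level of the members.

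Aplnr (ENSMUSG00000044338, chromosome 2, 85136225 to 85139923) stood at 166 CPM in mutant 1 and 217 CPM in mutant 2, against 201 CPM in the control. The control lay between the mutants, and the log2 fold was -0.11 (SE 0.18, edgeR adjusted p = 0.885). Arterial-like cells held 80.3 and 131 CPM in the mutants, against 151 CPM in the control, and mesenchyme held 0.466, 0.456 and 1.23 CPM. The mutant effect on Aplnr in the members minus that in arterial-like cells was 0.45 on the log2 scale (SE 0.14, edgeR adjusted p = 0.280), which was not called. That verdict depended on the settings. For Aplnr the difference was called under 7 alternatives, with adjusted p of 0.00232 to 0.0420: arterial limits of 2 (0.69) and of 0.5 (0.46), mitochondrial UMIs under 5% (0.45), a mesenchyme sum under 1 (0.42), no filter (0.46), a filter at 20 CPM (0.44) and a shared spread (0.45). It was 0.09 on sums thinned to 5000 UMIs per barcode and 0.26 among male barcodes, where it was not called.

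**Figure D1:**
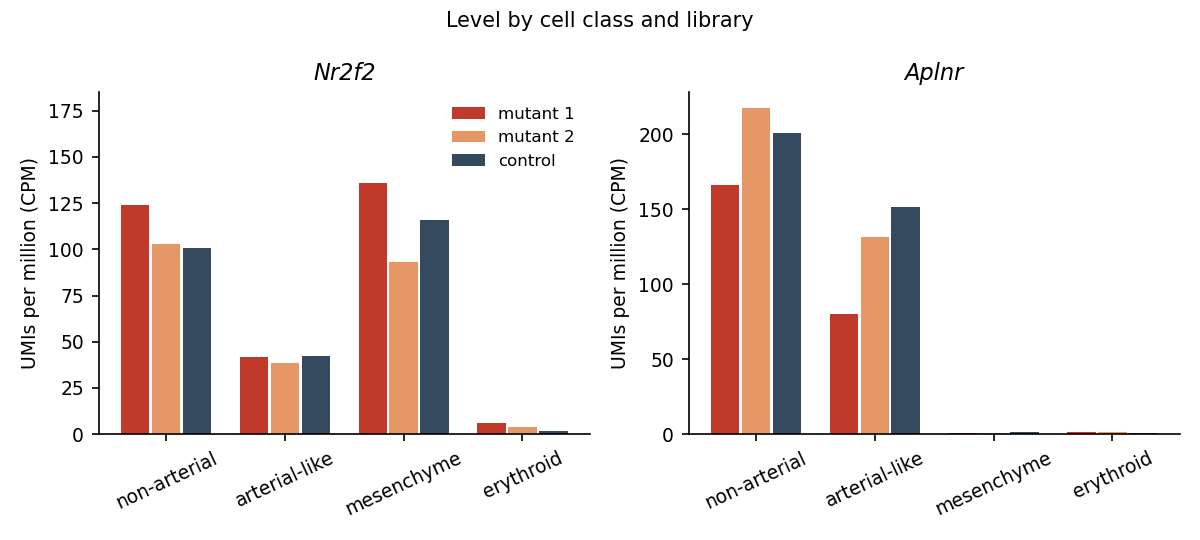
Level of Nr2f2 (left) and Aplnr (right) in CPM, by cell class along the horizontal axis, 1 bar per library (mutant 1, mutant 2, control). Nr2f2 is at a like height in non-arterial endothelium and mesenchyme, whereas Aplnr is at 0.456 to 1.23 CPM in mesenchyme.

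With every barcode thinned to 5000 UMIs (shallower ones left out), an Nr2f2 UMI was found in 42.9% of 280 members of mutant 1 (95% exact Clopper-Pearson interval 37.0 to 48.9) and in 40.3% of 313 members of mutant 2 (34.8 to 45.9), against 37.6% of 354 members of the control (32.5 to 42.8). These intervals cover counting error within each library only, and mutants were not tested against the control on these shares. An Aplnr UMI was found in 56.4% (50.4 to 62.3) and 66.8% (61.2 to 72.0) of mutant members, against 61.0% (55.7 to 66.1) of control members. Thinning left out 30, 20 and 57 members. Erythroid barcodes, a cell type that should lack both genes, were thinned to the same 5000 UMIs. They had an Nr2f2 UMI in 1.41%, 1.46% and 0.976% of cells and an Aplnr UMI in at most 0.488%. Their median depths before thinning were 67259, 59883 and 96318 UMIs. Without thinning, 89.4%, 88.6% and 79.8% of members held an Nr2f2 UMI and 88.7%, 92.8% and 87.6% an Aplnr UMI.

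Both genes were found together at this depth in 22.9% and 25.2% of mutant members, against 25.1% of control members. Neither was found in 23.6% and 18.2% of mutant members, against 26.6% in the control. Among members with at least 10000 UMIs, the median Nr2f2 level was 1.05 and 0.923 UMIs per 10000 in the mutants, against 0.873 in the control, and the medians for Aplnr were 1.66, 2.14 and 1.82. In that depth range 2.55%, 6.51% and 8.21% of members had no Nr2f2 UMI at all. Single-cell levels of Nr2f2 ran up to 6.31 per 10000 in mutant 1, 5.72 in mutant 2 and 5.26 in the control. Veins and plexus were not split.

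Venous and plexus genes gave no call. Of 16 listed, 11 passed the filter, 0 were called and 0 reached an unadjusted p under 0.05, with a median log2 fold of 0.20 beside 0.02 over all 9759 tested genes. Split by library, the list's median was 0.23 in mutant 1 and 0.05 in mutant 2. Nrp2, a co-receptor of VEGF-C found on venous and lymphatic endothelium, stood at 203 and 214 CPM in the mutants, against 170 CPM in the control, with both mutants above it. Tek, the angiopoietin receptor, stood at 242 CPM in each mutant, against 200 CPM in the control. Ephb4 stood at 107, 94.2 and 92.4 CPM and Stab2, a scavenger receptor of sinusoidal and venous endothelium, at 30.6, 44.1 and 31.4 CPM. Stab2 stood at 6.75, 20.3 and 22.1 CPM in arterial-like cells. The 5 listed genes under the filter were Lyve1, Nt5e, Selp, Ackr1 and Fmo2, and Selp, the P-selectin gene, was at 0.0464, 0.101 and 0.205 CPM. Prox1, the lymphatic regulator, was at 3.15, 4.76 and 2.66 CPM, under the filter.

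Arterial genes that the gate did not use were still found in the members. Efnb2, the arterial ephrin, stood at 79.2, 75.6 and 74.7 CPM in the members and at 255, 278 and 270 CPM in arterial-like cells. Hey1, a Notch target, stood at 11.4, 4.30 and 9.88 CPM in the members, against 105, 84.3 and 86.3 CPM in arterial-like cells. Of 20 such genes listed, 16 were tested in the members and 0 were called. Their median log2 fold of mutants over control was 0.01.

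The share of endothelial barcodes that were non-arterial was 71.4% in mutant 1 (310 of 434, 66.9 to 75.6) and 71.0% in mutant 2 (333 of 469, 66.7 to 75.1), against 71.9% in the control (411 of 572, 68.0 to 75.5). Intervals are exact Clopper-Pearson 95% intervals and cover counting error only. As a share of all kept barcodes, the members made up 9.66% of mutant 1 (8.66 to 10.7) and 7.53% of mutant 2 (6.77 to 8.34), against 13.6% of the control (12.4 to 14.9). Both mutants lay below the control by more than counting error, and the intervals of the mutants lay apart from that of the control. With 2 mutants and 1 control the smallest exact permutation p is 0.333, so neither share was tested. The kept barcodes also held 1329 and 2254 mesenchyme barcodes in the mutants, against 1232 in the control, and the part of such differences in the second share was not tested. Without the barcodes of clusters 5 and 6, described next, it was 8.10% and 6.46% in the mutants and 10.1% in the control.

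The members fell into 7 Leiden clusters at resolution 0.5, here numbered and not named. Cluster 1 was almost entirely mutant 1, with 97 cells of it, 1 of mutant 2 and 4 of the control, and was led by Adm, Ier3, Ddit4, Slc2a3, Egln3 and Bnip3, most of them genes raised by low oxygen. It held 31.3% of the members of mutant 1. Clusters 2, 3 and 4, led by Egfem1 and Tll1, by Klhl1, and by weakly raised genes, drew on every library. Cluster 2 held 22.6% and 26.1% of mutant members, against 15.3% of control members. Cluster 3 held 7.42% and 7.81% of mutant members, against 16.3% of control members, and cluster 4 held 9.68% and 39.3%, against 27.3%. Cluster sizes rest on genes that themselves differ between libraries, so these shares were not compared further.

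**Figure D2:**
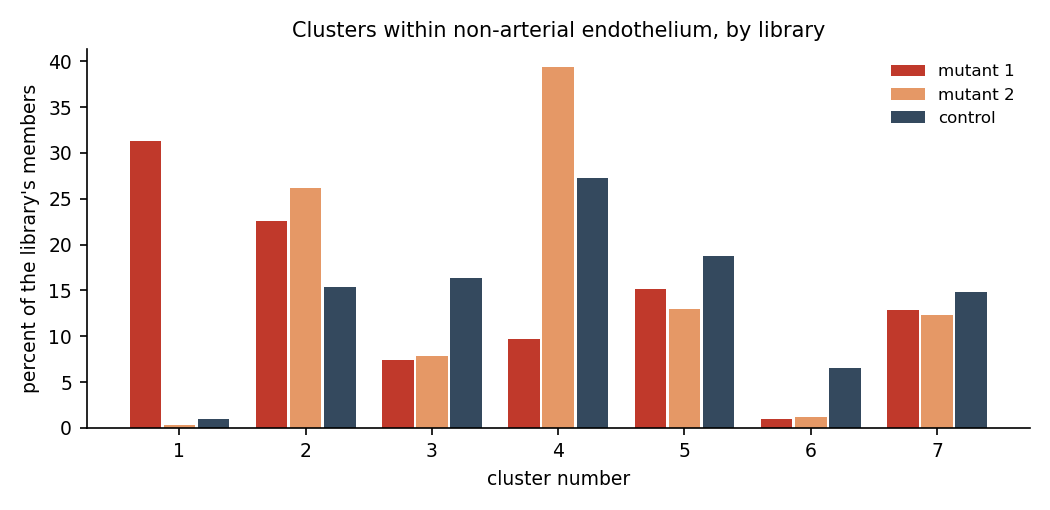
Share of each library's members in each of 7 clusters, in percent, 1 bar per library (mutant 1, mutant 2, control). Cluster 1 holds 31.3% of mutant 1 and under 1% of the other libraries, and cluster 6 holds 0.968% and 1.20% of the mutants against 6.57% of the control.

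Cluster 5 was shallow (median 3667, 9865 and 4003 UMIs) and led by the mesenchyme genes Ptn, Gpc3, Gpc5, Crabp1 and Col1a1, with 10 of the 12 mesenchyme markers raised. It held 47 cells of mutant 1, 43 of mutant 2 and 77 of the control, 29 of them called doublets by Scrublet (9, 17 and 3). Cluster 6, with 3, 4 and 27 cells, was led by S100a9, S100a8, Ccl5, Srgn and Runx1, genes of leukocytes. All 281 S100a8 UMIs of that cluster were in the control. Cluster 7, with 40, 41 and 61 cells, was led by Cdh13, Mdga2, Xist and Plcl1. Of the venous list it had raised Flt4, Stab2, Tek and Cpe. Also raised were 9 of 19 arterial genes outside the gate and 10 of 18 guidance genes, with Efnb2 and Unc5b in both lists. The rise was not limited to these lists. Raised too were 8 of 16 basement membrane, 8 of 21 tip cell, 6 of 20 VEGF and 5 of 26 pan-endothelial genes. None of 51 G2 and M phase genes or of 35 p53 targets was raised. The share of all genes raised in this cluster was not computed. Its median depth was 24002, 45585 and 39637 UMIs. Gm42418 stood there at 7838 CPM, against a median of 1760 CPM over the other clusters. The 20 ribosome biogenesis genes summed to 6736 CPM there, against 10010 to 12117 CPM in the other clusters. The Aplnr level of cluster 7 was 338, 271 and 323 CPM, above that of the whole class in every library. The part of depth and of RNA make-up in these levels was not tested. Nr2f2 stood in cluster 2 at 170 and 116 CPM in the mutants, against 124 CPM in the control, and in cluster 3 at 103, 65.9 and 88.2 CPM.

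Across genes, edgeR's quasi-likelihood test called 0 of 9759 genes higher and 0 lower in mutant members (background 0.0% in each direction, lowest adjusted p 0.693). At an unadjusted p under 0.05 stood 652 genes (6.68%), 294 of them higher (3.01%) and 358 lower (3.67%). DESeq2 on the same sums called 251 genes (2.57%), 91 higher (0.932%) and 160 lower (1.64%), 249 of which were also under 0.05 unadjusted in edgeR. With 1 residual degree of freedom, the spread comes from the mutant pair and is assumed to hold for the single control. In mesenchyme edgeR called 84 of 10182 genes higher (0.825%) and 85 lower (0.835%), and in arterial-like cells 0 of 9867 (0.0%). These counts are not like for like. The mesenchyme fit used 1 trended spread for every gene (infinite prior degrees of freedom). Prior degrees of freedom were 2.25 in the members and 3.25 in arterial-like cells, so each gene's own spread counted there. With a shared spread, 501 genes were called higher and 526 lower in the members. On simulated counts for the members' comparison the test recovered 30% of 100 genes changed by 1 on the log2 scale. It recovered 99% of 100 changed by 2, with 7 false calls. Those counts gave genes of like level a common spread, without the gene-to-gene spread of the real fit. The recovered shares therefore do not show which changes the real test could call. Ptprt, at a log2 fold of 5.64, had an edgeR adjusted p of 0.693. The mutants also differed from each other: 347 genes (3.56%) were over 2-fold apart between them, against 37 (0.379%) over 2-fold above the control in both and 27 (0.277%) over 2-fold below it in both.

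**Figure D3:**
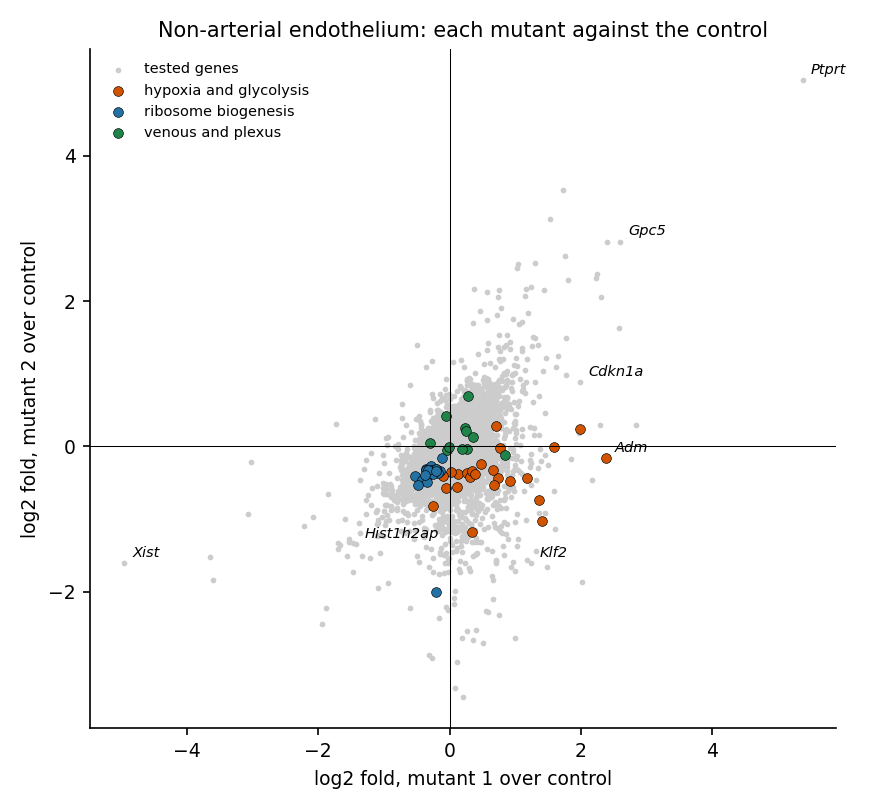
Log2 fold of mutant 1 (horizontal) and of mutant 2 (vertical) over the control for all 9759 tested genes, with 3 gene lists in colour. Ribosome biogenesis genes lie below 0 in both mutants, hypoxia genes lie mostly to the right in mutant 1 and below 0 in mutant 2, and venous and plexus genes lie on both sides of 0.

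The 5 higher genes with the lowest p, none of them called by edgeR, were Ptprt, Gpc5, Gpc6, Aff2 and Lmx1b, and each had an edgeR adjusted p of 0.693. Ptprt, a receptor-type tyrosine phosphatase (ENSMUSG00000053141, chromosome 2, 161521990 to 162661147), stood at 11.8 and 9.67 CPM in the mutants, against 0.205 CPM in the control. These UMIs sat in few cells. One barcode held 110 of the 191 UMIs of mutant 2 (57.6%) and another held 86 of the 255 of mutant 1 (33.7%), and 26 and 43 mutant members had any, against 4 of the control. In mesenchyme Ptprt stood at 104 and 100.3 CPM in the mutants, against 8.56 CPM in the control, and edgeR called it higher there (log2 3.52, SE 0.39, adjusted p = 9.69e-17). Cluster 5 held 93 of the 255 Ptprt UMIs of mutant 1 and 40 of the 191 of mutant 2, against 4 of 7 in the control. The barcode with 110 Ptprt UMIs was the 1 cell of mutant 2 in cluster 1, which had 0 Prrx1 UMIs. The part of mesenchyme RNA in the members' values was not tested.

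The glypican Gpc5 (chromosome 14, 115092215 to 116525179) stood at 21.8 and 26.2 CPM in the mutants, against 3.48 CPM in the control, and cluster 5 carried most of it in the mutants, with 380 of 470 UMIs in mutant 1 and 409 of 517 in mutant 2, against 14 of 119 in the control. Mesenchyme held 716 and 675 CPM of Gpc5 in the mutants, against 384 CPM in the control. Gpc6 stood at 120 and 126 CPM, against 52.2 CPM. Without the barcodes of clusters 5 and 6, the log2 fold of Gpc6 was 0.38, where with them it was 1.19, and Gpc5, Aff2 and Lmx1b dropped under the filter. Aff2 stood at 8.72 and 9.88 CPM, against 1.75 CPM in the control. Lmx1b, which specifies dorsal limb mesenchyme, stood at 6.59 and 7.19 CPM, against 1.32 CPM. Of the 12 mesenchyme markers, 4 passed the filter and Prrx1 alone had an unadjusted p under 0.05, at 10.8 and 19.2 CPM in the mutants, against 5.41 CPM in the control.

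Among the 5 lower genes with the lowest p were Hist1h2ap, Rpl27, Tmsb10 and Erh, each with an edgeR adjusted p of 0.693. Hist1h2ap, a replication-dependent histone H2A gene (chromosome 13, 21833026 to 21833507), stood at 179 and 194 CPM in the mutants, against 472 CPM in the control (log2 fold -1.38, SE 0.08). It was spread over many cells, with 81.3% and 77.2% of mutant members and 85.2% of control members holding an Hist1h2ap UMI. Rpl27, a protein of the large ribosomal subunit, stood at 579 and 615 CPM in the mutants, against 993 CPM in the control. Near-identical histone copies and processed copies of ribosomal genes can split such reads, so the values of Hist1h2ap and Rpl27 are uncertain. In mesenchyme the log2 fold was -1.32 for Hist1h2ap (SE 0.35), which edgeR called lower there (adjusted p = 0.0159), and it was -0.76 for Rpl27 and -0.83 for Erh. For these 3 genes the difference of the mutant effect between members and mesenchyme was -0.04, 0.02 and 0.01, and none was called. Tmsb10, which binds actin monomers, stood at 4016 and 4121 CPM, against 5438 CPM.

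Genes of ribosome production lay to one side. All 20 passed the filter, all 20 lay below the control in both mutants (33.5% of all tested genes did), and 10 had an unadjusted p under 0.05, beside 3.67% of all genes. Rrs1 stood apart, at 63.4 and 18.7 CPM in the mutants, against 71.9 CPM in the control, and is named for its spread. The median log2 fold of the list was -0.33, and -0.30 and -0.35 in the separate mutants. DESeq2 called 7 of them lower and edgeR 0. Wdr43, a factor of the small subunit processome, stood at 184 and 183 CPM, against 241 CPM in the control. Nop58, a box C/D snoRNP core protein, stood at 285 and 283 CPM, against 355 CPM, and Npm1, nucleophosmin, at 4744 and 4317 CPM, against 5290 CPM. Among 80 cytosolic ribosomal protein genes, 17 were called lower by DESeq2 and 0 higher, beside 1.64% and 0.932% of all tested genes, with a median log2 fold of -0.08 beside 0.02.

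G2 and M phase genes lay to the other side. Of 51 tested, 42 were above the control in both mutants (36.6% of all tested genes were), 7 were higher at an unadjusted p under 0.05 (3.01% of all genes were) and 0 were called by edgeR, with a median log2 fold of 0.16. Cenpf, a kinetochore protein, stood at 263 and 251 CPM, against 172 CPM in the control, and Top2a, topoisomerase II alpha, at 495 and 483 CPM, against 393 CPM. S phase genes had a median of -0.06 over 41 tested. Cohesin and cohesion genes had a median of 0.09 over 18 tested, with Smc1a at 295 and 305 CPM, against 252 CPM in the control.

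**Figure D4:**
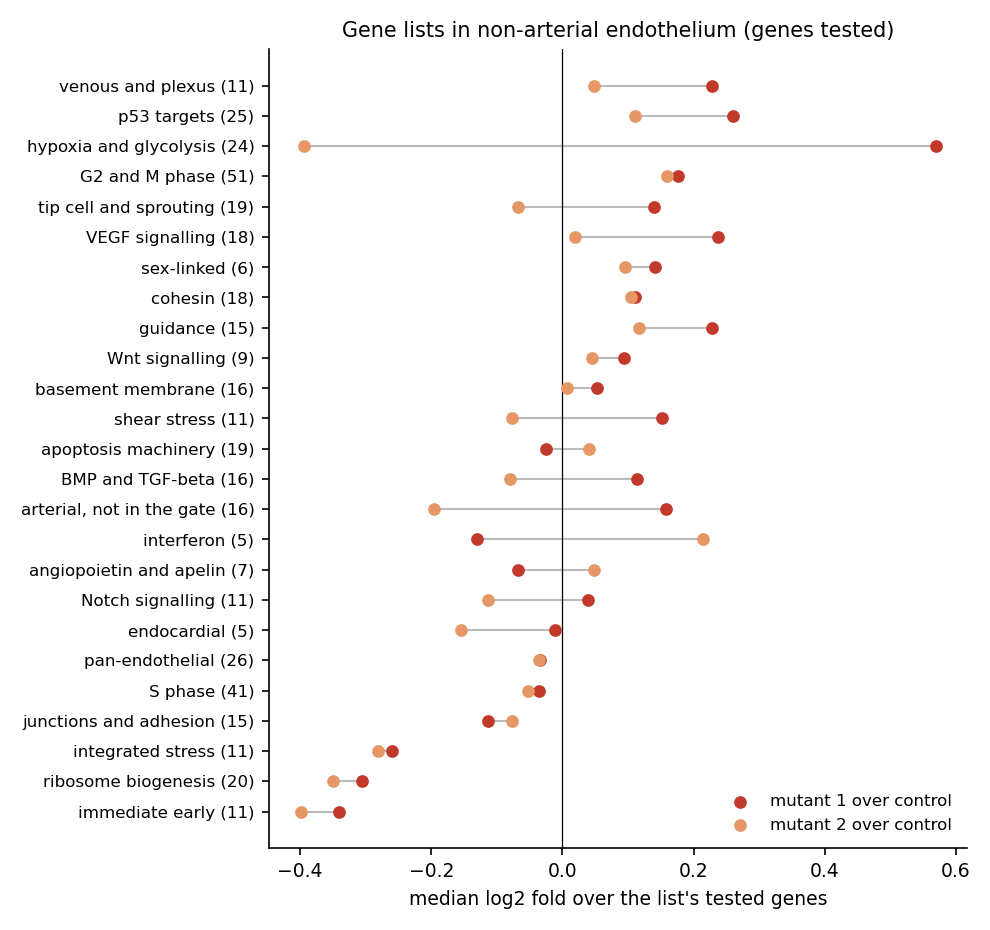
Median log2 fold over the tested genes of each list, 1 point for mutant 1 over the control and 1 for mutant 2 over the same control, with the number of genes tested in brackets. The points of the hypoxia and glycolysis list lie at 0.57 and -0.39, whereas those of ribosome biogenesis lie at -0.30 and -0.35.

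Hypoxia and glycolysis genes separated the mutants from each other. Their median log2 fold over the control was 0.57 in mutant 1 and -0.39 in mutant 2, and of 24 tested genes 0 had an unadjusted p under 0.05. Bnip3, a mitophagy receptor induced by low oxygen, stood at 133 CPM in mutant 1 and 25.1 CPM in mutant 2, against 49.1 CPM in the control. Mesenchyme showed the same order for Bnip3, with 101 and 25.4 CPM in the mutants and 65.4 CPM in the control. The summed list did not keep that order there. It summed to 7319 and 6396 CPM in mutant mesenchyme, against 8698 CPM in the control. In the members it summed to 9623 and 6668 CPM, against 8758 CPM. Adm, adrenomedullin, stood at 46.4 and 8.15 CPM, against 8.68 CPM in the control. The shear-stress factor Klf2 stood at 177 and 25.2 CPM, against 73.4 CPM. The control lay between the mutants for Bnip3 and Klf2.

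The p53 target genes were tested in the members and set against mesenchyme. Of 35 listed, 25 were tested, 0 were called, 3 were higher at an unadjusted p under 0.05 and 0 lower, beside 3.01% and 3.67% of all tested genes, with a median log2 fold of 0.19 beside 0.02. Of the 25, 14 lay above the control in both mutants and 6 below it in both, beside 36.6% and 33.5% of all tested genes. Cdkn1a, the p21 inhibitor of cyclin-dependent kinases (ENSMUSG00000023067, chromosome 17, 29090976 to 29100727), stood at 24.6 and 11.8 CPM in the mutants, against 6.02 CPM in the control (log2 1.56, SE 0.59, adjusted p = 0.693). In mesenchyme it stood at 61.2 and 61.3 CPM in the mutants, against 1.56 CPM in the control. The mutant effect in the members minus that in mesenchyme was -3.74 on the log2 scale (SE 0.36, edgeR adjusted p = 1.82e-05). With mitochondrial UMIs under 5% this difference for Cdkn1a was -3.76 and was not called (adjusted p = 0.306).

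Few cells carried Cdkn1a. In mutant 2 a single barcode held 46 of 232 UMIs (19.8%), and 10 barcodes held 74.6%. The 1 cell of mutant 2 in cluster 1, which had 110 Ptprt UMIs, held 46 Cdkn1a UMIs. No member of mutant 2 held more. In mutant 1, 10 barcodes held 65.1% of 530 UMIs, and in the control 54.4% of 206. At 5000 UMIs per barcode a Cdkn1a UMI was found in 6.79% and 2.88% of mutant members, against 2.54% of control members, beside 0.626%, 1.26% and 1.22% of erythroid barcodes. In mutant 1 its level was 32.6 CPM in cluster 1, 41.9 CPM in cluster 4 and 40.7 CPM in cluster 7, but 3.30 CPM in cluster 2. In mutant 2 clusters 4 and 7 stood at 6.94 and 4.69 CPM, and the mesenchyme-rich cluster 5 at 41.6 CPM, against 6.78 CPM for cluster 5 of the control. Without clusters 5 and 6 the log2 fold of Cdkn1a was 1.36, and without mutant 1 it was 0.89. Ano3, chosen here after its values were seen, had a mean under the filter at 6.36 and 8.21 CPM, against 0.146 CPM in the control, and 1 barcode held 86 of its 162 UMIs in mutant 2. In mesenchyme Ano3 stood at 72.1 and 55.7 CPM in the mutants, against 3.81 CPM in the control. The p53 targets Bax and Mdm2 stood close to the control, Bax at 246 and 265 CPM, against 246 CPM, and Mdm2 at 38.4 and 43.3 CPM, against 38.3 CPM.

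The mutant effect differed between the members and mesenchyme for 161 of 10288 genes (1.56%), with 109 more positive in the members (1.06%) and 52 more negative (0.505%). Over all tested genes 59.6% of the differences were positive, with a median of 0.05 on the log2 scale. DESeq2 called 57 (0.554%). After Cdkn1a the lowest p went to Eda2r, a p53-induced receptor of the TNF receptor family, which stood at 7.28 and 7.14 CPM in mutant members, against 5.70 CPM in control members, and in mesenchyme at 19.7 and 15.4 CPM, against 1.45 CPM. Arap2, an Arf GTPase-activating protein, and Mtus1, a microtubule-associated protein, showed the same form, with differences of -2.63 and -2.34. Sparcl1, a matricellular protein, went the other way: 21.6 and 17.1 CPM in mutant members, against 7.89 CPM in control members, while mesenchyme held 4.73 and 1.48 CPM in the mutants and 14.8 CPM in the control. Aplnr was called in this test as well, with a difference of 1.38 (SE 0.31, adjusted p = 0.0222), at mesenchyme levels of 0.456 to 1.23 CPM. For Aplnr the call was lost after thinning to 5000 UMIs (0.47, adjusted p = 0.998), without scaling factors (1.37, adjusted p = 0.186) and with mitochondrial UMIs under 5% (1.51, adjusted p = 0.370). Under that last setting 0 genes were called in this comparison.

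**Figure D5:**
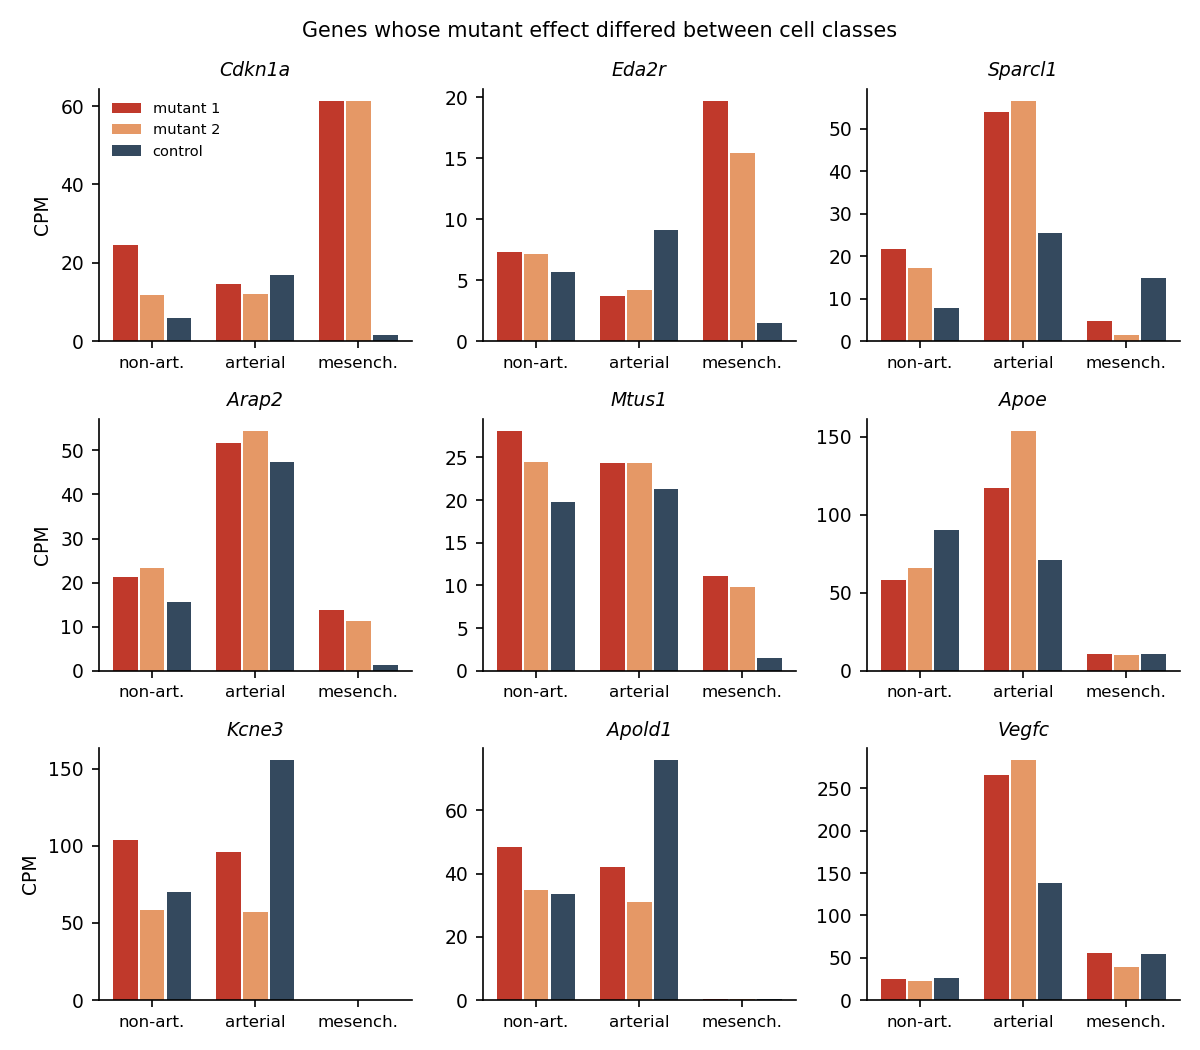
Level in CPM of 9 genes in non-arterial endothelium, arterial-like endothelium and mesenchyme, 1 bar per library (mutant 1, mutant 2, control). In mesenchyme both mutant bars of Cdkn1a, Eda2r, Arap2 and Mtus1 stand above the control bar, and Vegfc is higher in the mutants in arterial-like cells, at 266 and 284 CPM against 138 CPM.

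Against arterial-like endothelium the mutant effect differed for 38 of 9821 genes (0.387%), 22 more positive in the non-arterial members (0.224%) and 16 more negative (0.163%). DESeq2 called 8 of 5251 (0.152%). Apoe, a lipid carrier, stood at 57.9 and 66.1 CPM in mutant members, against 90.3 CPM in control members, and in arterial-like cells at 117 and 154 CPM, against 70.8 CPM (difference -1.50, SE 0.13, adjusted p = 0.000590). Vegfc, a growth factor for lymphatic and venous endothelium, stood at 24.9 and 22.6 CPM in the mutant members, against 26.2 CPM in control members, and in arterial-like cells at 266 and 284 CPM, against 138 CPM (difference -1.15, SE 0.14, adjusted p = 0.00560). Kcne3, a potassium channel subunit of sprouting endothelium, and Apold1, an endothelial early-response gene, had differences of 1.21 and 1.33, and both were lower in mutant arterial-like cells than in control ones. Xist had the lowest p, with 3.85 and 41.1 CPM in mutant members, against 120 CPM in control members, and it is the X-inactivation RNA of female cells, whose share differed between libraries. Cdkn1a was called here too, with a difference of 1.88 (SE 0.28, adjusted p = 0.0190). For Cdkn1a it turned to -0.19 with an arterial limit of 2 in place of 1, and it was not called among male barcodes (1.15, adjusted p = 0.0635) or after thinning (1.13, adjusted p = 0.952). All of these arterial-like sums rest on 124, 136 and 161 cells. Of these, 30, 27 and 58 had an arterial sum between 1 and 1.5. The median arterial sum was 2.56 and 3.12 in the mutants, against 2.13 in the control. Gja4 stood there at 227 and 251 CPM, against 131 CPM in the control. Gja5 stood at 28.9 and 55.1 CPM, against 5.90 CPM, whereas Dll4 was lower, at 71.6 and 87.7 CPM, against 102 CPM. The part of this make-up in the differences was not tested beyond the fits with other arterial limits.

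Of 19 tip cell and sprouting genes tested, 3 were higher and 2 lower at an unadjusted p under 0.05, beside 3.01% and 3.67% of all tested genes, and edgeR called 0. Col4a1, a basement membrane collagen, stood at 712 and 757 CPM, against 577 CPM in the control (log2 0.30, SE 0.06), and DESeq2 called it higher (adjusted p = 0.00151). Plaur, the urokinase receptor, stood at 23.0 and 30.7 CPM, against 73.4 CPM (log2 -1.50, SE 0.20), which DESeq2 called lower. Esm1, a tip cell gene, stood at 22.9 and 20.4 CPM, against 12.2 CPM, but 10 barcodes held 73.8% and 61.5% of its UMIs in the mutants and 53.2% in the control. An Esm1 UMI was found in 14.8% and 16.5% of mutant members, against 16.1% of control members, at unequal depth. Of the angiopoietin and apelin genes, the ligand Angpt1 stood at 4.18 and 4.91 CPM, against 8.21 CPM, but 1 control barcode held 177 of 281 UMIs. Sox18, a transcription factor of early endothelium, stood at 135 and 144 CPM, against 187 CPM (log2 -0.47, SE 0.09). Of 11 Notch and 18 VEGF pathway genes tested, 0 had an unadjusted p under 0.05, with medians of -0.04 and 0.14.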

How the data were processed

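Counts were used as deposited: 1 matrix of whole-number UMI counts per library with 31054 features, 1 of them the CRE transgene. Per the submitters' processing notes, Cell Ranger 7.0.0, Seurat 4.0.0 and the build mm10 were used. The sources used here do not give how cells were called or whether intronic reads were counted. Gene positions are from the GENCODE vM21 annotation of that build.

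UMIs were summed per library over the gated barcodes, since cells are not replicates. Genes averaging 5 CPM or more entered edgeR 4.0.16 (TMM factors, quasi-likelihood test, Benjamini-Hochberg over all tested genes, called under 0.05). Printed CPM values are unscaled. Differences between classes were tested as an interaction on 6 sums, with a term per library and 1 residual degree of freedom. DESeq2 1.42.0 was an alternative. Clusters used 2000 variable genes, 20 components and 15 neighbours in scanpy 1.11.5. Doublets were called with Scrublet and kept in the main sums. The rule for named genes took Nr2f2, Aplnr, Esco2 and Cdkn1a, called genes of each direction and list or, with fewer than 5 called in a direction, the 5 with the lowest unadjusted p, the 3 members of each list with the highest mean CPM among those tested, and the 5 called genes with the lowest p of each interaction. Genes named to describe clusters, and Ephb4, Efnb2, Selp, Prox1, Hey1, Adm, Bnip3, Wdr43, Cenpf, Ano3, Mdm2, Rrs1, Plaur, Esm1, Angpt1 and Sox18, fall outside it and were chosen after their values were seen. The members, the 34 gene lists and the tests were chosen with earlier results of these data known. One of the 5 lower genes with the lowest p is not reported here. Scripts were tested on simulated data. Intervals and limits cover counting error only.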

Additional observations from a re-analysis of the deposited data

Results flagged for a closer look

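The mutant effect differed between non-arterial endothelium and limb mesenchyme by a test of the difference itself for Cdkn1a (-3.74), Eda2r (-3.22), Sparcl1 (3.77), Arap2 (-2.63) and Mtus1 (-2.34), each the log2 fold in the endothelial members minus that in mesenchyme.

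Against arterial-like endothelium the same kind of difference was tested for Xist (3.21), Apoe (-1.50), Kcne3 (1.21), Apold1 (1.33) and Vegfc (-1.15). Xist moved with the share of male cells, which was 99.2% and 98.5% of sexed arterial-like cells in the mutants and 79.0% in the control, against 99.6%, 92.6% and 80.4% of the members. The part of sex in the other differences was not tested beyond the fit on male barcodes alone. The arterial-like class also differed between libraries in its levels of the gate's arterial genes. The part of that in these differences was not tested beyond the fits with other arterial limits.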

How the results depend on the processing

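No paired analysis was possible because the single control shares fewer than 2 replicate numbers with the mutants. The counts of genes called higher and lower in mutant members (0 and 0) were 91 and 160 with DESeq2, 501 and 526 with a shared spread, and 3 and 8 after thinning to 5000 UMIs.

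The number of genes whose mutant effect differed from that in mesenchyme (161) was 24 without scaling factors, 487 with a mean of at least 1 CPM, 538 with no filter, 57 with DESeq2 and 396 with a shared spread. It was 313 and 333 with an endothelial minimum of 1 and 4, 0 with mitochondrial UMIs under 5%, 254 without Scrublet doublets, 288 with a mesenchyme sum under 1, 287 at 10000 UMIs or more, 43 after thinning and 346 among male barcodes.

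The number against arterial-like cells (38) was 162 with RLE factors, 23 without scaling factors, 306 with no filter, 158 with a mean of at least 20 CPM, 8 with DESeq2 and 313 with a shared spread. It was 86 and 138 with an endothelial minimum of 1 and 4, 182 and 141 with an arterial limit of 0.5 and 2, 131 at 2000 genes or more, 169 with mitochondrial UMIs under 5%, 154 without Scrublet doublets, 268 with a mesenchyme sum under 1, 94 at 10000 UMIs or more, 13 after thinning, 102 among male barcodes and 109 without clusters 5 and 6. The difference for Cdkn1a against arterial-like cells was -0.19 with an arterial limit of 2.

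The share of endothelial barcodes, mutants minus control (-0.638 points), was -0.225 with an endothelial minimum of 4, 0.488 and -4.13 with an arterial limit of 0.5 and 2, 0.202 at 2000 genes or more, 0.733 with mitochondrial UMIs under 5%, -2.02 after thinning and 2.14 without clusters 5 and 6. The share of kept barcodes (-4.99 points) was -2.86 without clusters 5 and 6. Leaving out 1 mutant at a time gave -0.851 to -0.425 and -6.06 to -3.92 points. Of the alternatives for fold changes of single named genes in the members, 2134 lay within 1 SE of the main fold and 122 lay further away. None of those gave a call, and 58 others became called in the same direction. Leiden resolution 1 gave 13 clusters. The cause of these changes was not tested. The settings on male barcodes and on clusters 5 and 6 were chosen after seeing the data. Counts of calls without a mutant were not run, since no residual degree of freedom would be left. With 1 control, its own spread is unmeasured.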

Other observations

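Of 11 tested integrated stress response genes, 8 were below the control in both mutants and 1 above, beside 33.5% and 36.6% of all tested genes, with a median log2 fold of -0.28 beside 0.02. EdgeR called 0 of them and DESeq2 called 1 lower, Mthfd2, an enzyme of mitochondrial folate metabolism named after its values were seen, at 42.4 and 44.6 CPM in mutant members, against 60.5 CPM in control members. Atf4, the transcription factor of that response, stood at 79.3 and 88.8 CPM in mutant members, against 101 CPM in control members, and Asns, asparagine synthetase, at 52.4 and 61.7 CPM, against 71.6 CPM. Of the 11 tested immediate early genes, 7 were below the control in both mutants, 2 above and 2 between, beside the same 33.5% and 36.6%. Their median log2 fold was -0.34, and -0.34 and -0.40 in the separate mutants, and edgeR called 0. All 16 listed summed to 535 and 435 CPM in mutant members, against 522 CPM in control members. Among them Jun stood at 117 and 103 CPM in mutant members, against 135 CPM, whereas Jund separated the mutants, at 117 and 17.9 CPM, against 50.7 CPM in control members.

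Hapln1, a hyaluronan link protein, stood at 693 and 700 CPM in mutant members, against 857 CPM in control members (log2 -0.35, SE 0.06, edgeR adjusted p = 0.693), and DESeq2 called it lower. Id3, a target of BMP signalling, stood at 509 and 503 CPM, against 579 CPM in control members. Cldn5, a tight junction protein of endothelium, stood at 368 and 574 CPM, against 472 CPM, so the control lay between the mutants.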
